A study of Mus musculus with 18 samples.

Results

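The mitochondrial ribosomal protein genes are the nuclear genes whose mouse symbols begin with Mrpl or Mrps, for proteins of the large and of the small subunit of the mitochondrial ribosome. Members were every gene with a symbol of that form (Mrpl or Mrps, a number and at most 1 further letter) and at least 10 expected counts in 6 or more libraries. All 78 genes with such a symbol met the rule, out of 55416 genes in the deposited tables, and all 78 were among the 16959 genes tested. They were read in every ovary: the lowest expected count of any member in any library was 103.

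Ovaries of wildtype Balb/c female mice were profiled by 3' RNA sequencing, with 1 library per mouse and 6 mice in each of 3 groups. The young control group (YC) was 8 weeks old and the aged control group (OC) 40 weeks old, and both received distilled water by mouth. The third group (OC+SM) was also 40 weeks old and received Samul-tang, a herbal medicine, at 2.5 g/kg. Dosing ran 5 times a week for 4 weeks. To bring on ovulation, all 18 mice then had an injection of PMSG (pregnant mare serum gonadotropin, 5 IU), followed after 48 hours by hCG (human chorionic gonadotropin, 5 IU). Ovaries were taken 16 hours after hCG, so every group is a hormone-stimulated ovary after ovulation. Mice of the OC and OC+SM groups were held apart inside shared cages. The comparison of OC with YC addresses ageing, that of OC+SM with OC addresses Samul-tang, and that of OC+SM with YC sets treated aged ovaries against young ones.

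Mitochondria have ribosomes of their own, which translate the few messenger RNAs of the mitochondrial genome into membrane subunits of the respiratory chain and of ATP synthase. All of their proteins are encoded in the nucleus, made in the cytosol and imported, and are assembled on ribosomal RNA that the mitochondrial genome supplies. In the ovary, oocytes hold large stores of mitochondria, and luteal cells carry out the first step of steroid synthesis in them. In people, variants of MRPS22, MRPS7 and MRPL50 have been linked to ovarian insufficiency.

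The 78 genes comprised 51 of the large subunit, 26 of the small subunit and Mrps36. Of the large-subunit genes, 30 were grouped as encoding proteins with a bacterial counterpart and 21 as encoding mitochondrial ones. The latter 21 include Mrps18a and Mrps30, whose proteins sit in the large subunit despite their names. Of the small-subunit genes, 16 were grouped as encoding proteins with a bacterial counterpart and 10 as encoding mitochondrial ones. The mitochondrial groups are not free of bacterial relatives, since they hold Mrps18a and Mrps18b, which are named for bacterial S18. The product of Mrps36 is now known as a subunit of the oxoglutarate dehydrogenase complex of the citric acid cycle (Kgd4), and the gene is kept here because the rule goes by symbol.

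On the deposited TPM scale, a share of transcripts that the authors divided by gene length, the mean over 18 libraries ran from 4.56 TPM for Mrpl19 to 649 TPM for Mrps21. Mrpl33 was second at 420 TPM, and Mrpl52, Mrpl53 and Mrpl34 followed at 242, 208 and 199 TPM. Mrpl1 lay near the low end at 5.42 TPM. A library made from 3' ends holds about 1 tag per transcript whatever its length, so the division raises short genes. On the undivided scale of CPM (counts divided by the library's total in units of 1000000, with TMM factors applied), Mrps21 was at 276 CPM, Mrpl33 at 154 CPM, Mrpl19 at 23.9 CPM and Mrpl1 at 18.3 CPM. All further levels are in CPM and are compared between groups, gene by gene.

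Summed over the 78 genes, the level was 3501 ± 225 CPM (SD, n = 6) in YC, 3710 ± 122 in OC and 3984 ± 114 in OC+SM. The lowest, median and highest libraries had 3058, 3562 and 3687 CPM in YC. They had 3626, 3663 and 3945 CPM in OC, and 3853, 3982 and 4156 CPM in OC+SM. The YC range overlapped that of OC, and the OC range overlapped that of OC+SM through OC 2, the highest aged control. All 6 OC+SM libraries lay above all 6 YC libraries. The lowest value belonged to YC 3, which was also the shallowest library. Without it the YC mean was 3589 ± 68.4 CPM (SD, n = 5). In bulk ovary, fewer cells of a type and less RNA per cell cannot be told apart.

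The large and small subunits kept nearly the same proportion in every ovary. The ratio of summed large-subunit to summed small-subunit CPM was 1.84 ± 0.0406 (SD, n = 6) in YC, 1.87 ± 0.0286 in OC and 1.86 ± 0.0301 in OC+SM, and the 18 values lay between 1.78 and 1.91. The groups overlapped throughout on this ratio. The plot of summed levels by subunit shows the same order of groups for both.

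**Figure D1:**
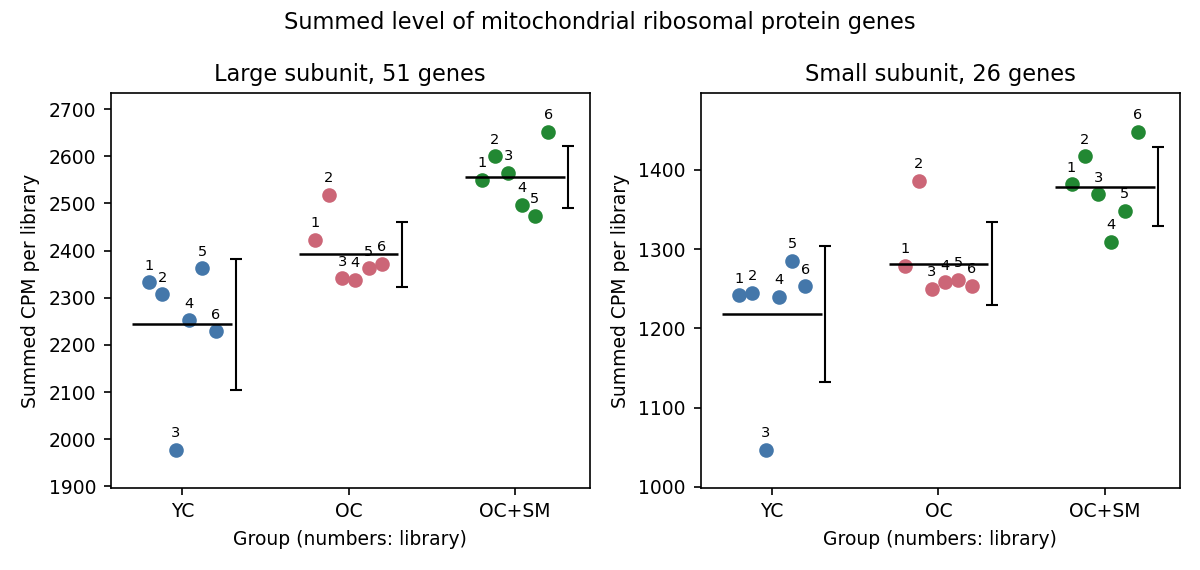
Summed CPM of the 51 large-subunit genes (left) and the 26 small-subunit genes (right) in each library, by group. Points are libraries numbered within their group, horizontal lines are group means, bars are SD over 6 libraries, and the vertical axes do not start at 0. YC 3 is the lowest library in both panels, at 1978 and 1047 CPM, and OC+SM 6 the highest, at 2652 and 1448 CPM.

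Libraries held 9049175 to 20354213 expected counts, and OC+SM libraries were deeper than OC libraries, with 17.2 ± 2.05 against 12.5 ± 0.715 in units of 1000000 counts (exact permutation test, two-sided, p = 0.00216, the smallest value that 6 against 6 allows; 0.00648 adjusted over 6 such tests). The most abundant gene, ENSMUSG00000119584, took a smaller share of OC+SM libraries, 10.7 ± 3.13% against 15.5 ± 1.70% in OC (exact permutation p = 0.00433, adjusted 0.00866). OC+SM also differed from YC in both measures. Depth in YC was 12.4 ± 1.89 in units of 1000000 counts (exact permutation p = 0.00216, adjusted 0.00648). The share of that gene in YC was 14.5 ± 1.43% (exact permutation p = 0.0216, adjusted 0.0324). YC 3 and OC+SM 6 had the lowest mean correlation with their own groups, 0.964 and 0.963. OC+SM 2, 3 and 6 lay farthest out on the third principal component. The part of these library differences in the results that follow was not tested, and counts of members are also given without those libraries.

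Markers of the ovary's cell types differed with age as well. A gene was called where the edgeR quasi-likelihood test gave an adjusted p under 0.05 over all genes tested. Of 58 tested marker genes of 10 cell types, 9 were called higher and 21 lower in OC than in YC. Of all genes tested, 5.25% were called higher and 6.03% lower. All 9 tested oocyte markers were lower, and their summed level was 31.7 to 52.2 CPM in OC and 26.9 to 60.5 CPM in OC+SM against 104 to 150 CPM in YC. Among smooth muscle markers 5 of 6 were lower (652 to 754 CPM in OC, 482 to 737 in OC+SM, 775 to 1410 in YC), as were 3 of 5 theca markers (350 to 494, 370 to 464 and 466 to 821 CPM). Of 8 tested granulosa markers 4 were lower (713 to 1140 CPM in OC, 516 to 1210 in OC+SM, 1040 to 1510 in YC), and Amh, a defining one, had a median count of 0. Luteal and steroidogenic markers summed to 14100 to 16200 CPM in OC, 14400 to 16900 in OC+SM and 9320 to 12600 in YC, with 2 of 7 called higher. All 3 tested lymphoid markers were higher with age (10.2 to 15.4 CPM in OC, 6.47 to 23.3 in OC+SM, 1.39 to 7.77 in YC), as were 2 of 6 endothelial markers (271 to 300.0, 168 to 283 and 220.0 to 259 CPM) and 2 of 8 macrophage markers (307 to 424, 326 to 600.0 and 186 to 423 CPM). Some markers of these lists went the other way. In OC against YC, 1 endothelial and 3 macrophage markers had log2 fold changes below 0, down to -0.42 and -0.44. Above 0 were 2 granulosa markers, up to 0.62, and 1 theca marker, at 0.01. None of 5 erythrocyte markers was called by edgeR with age, nor had any an unadjusted p under 0.05, and of 5 adipocyte markers Lep, Cidec and Ucp1 had a median count of 0. The part of these cell types in the values of the mitochondrial ribosomal protein genes was not tested. Between OC+SM and OC edgeR called none of the 58 marker genes and DESeq2 called 1. At an unadjusted p under 0.05 there were 9 (4 higher, 5 lower). Of all genes tested, edgeR called only 1.04% in this comparison, and 8.61% were higher and 8.26% lower at an unadjusted p under 0.05. In OC+SM against YC, 8 of the 58 were called higher and 22 lower, where 11.5% and 10.9% of all genes were.

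Promoters are shown for the members that the first 2 comparisons turned on. RefSeq promoter sequences (build GRCm38.p6, 250 bases before to 50 after each start) were found for 69 members, in 75 windows, and for 7 of the 8 genes called with age or with Samul-tang. The 100 bases ending just before the start are printed 5′ to 3′ on the gene's strand. Capitals mark a match to a motif of NRF1 (GCGC, any base, T and again GCGC, or its reverse complement) or of ETS factors such as GABP (CCGGAAG or CTTCCGG), both of which are known at promoters of mitochondrial protein genes. The printed stretches lie at chr11:94653691-94653790 on the plus strand for Mrpl27, chr1:37890377-37890476 plus for Mrpl30, chr5:31613851-31613950 plus for Mrpl33, chr13:73330909-73331008 plus for Mrpl36, chr6:92184024-92184123 minus for Mrps25, chr13:100744660-100744759 minus for Mrps36 and chr11:115604040-115604139 plus for Mrps7.
Mrpl27: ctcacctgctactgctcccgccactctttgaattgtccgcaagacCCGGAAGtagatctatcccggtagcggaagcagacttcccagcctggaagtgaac
Mrpl30: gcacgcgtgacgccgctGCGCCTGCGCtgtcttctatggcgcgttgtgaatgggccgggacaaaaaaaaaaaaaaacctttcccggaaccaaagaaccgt
Mrpl33: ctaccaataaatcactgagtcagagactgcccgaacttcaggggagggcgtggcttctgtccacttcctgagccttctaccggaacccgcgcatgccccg
Mrpl36: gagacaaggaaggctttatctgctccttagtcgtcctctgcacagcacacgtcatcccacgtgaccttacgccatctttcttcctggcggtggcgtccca
Mrps25: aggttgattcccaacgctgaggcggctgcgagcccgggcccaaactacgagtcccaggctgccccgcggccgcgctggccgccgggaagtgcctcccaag
Mrps36: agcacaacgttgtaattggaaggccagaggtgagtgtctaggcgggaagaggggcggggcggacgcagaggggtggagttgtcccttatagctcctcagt
Mrps7: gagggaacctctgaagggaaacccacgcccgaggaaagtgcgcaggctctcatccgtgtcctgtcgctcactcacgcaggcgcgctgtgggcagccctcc

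Mrpl27 had the ETS letters 55 bases before its start and Mrpl30 the NRF1 letters 83 bases before its start. The other 5 stretches held none of the motifs searched, nor did the rest of their 250 bases upstream. Over the 250 bases upstream in the 75 member windows, the NRF1 letters stood in 10 (13.3%), the ETS letters in 18 (24.0%) and the YY1 letters (ATGGCGGC or GCCGCCAT) in 1 (1.33%). Among promoters of genes tested the shares were 7.20%, 12.4% and 1.75%, and among all RefSeq promoters they were 3.74%, 6.91% and 1.03%. At least 1 of the 3 stood in 28 member windows (37.3%), against 19.7% for genes tested and 10.9% for all, and no member window had overlapping motifs. The 10 members with the NRF1 letters had a median log2 fold change of 0.04 in OC against YC, 0.07 in OC+SM against OC and 0.12 in OC+SM against YC. The other 59 had 0.08, 0.12 and 0.17. For the ETS letters the medians were 0.09, 0.12 and 0.17 in the 18 genes with them and 0.07, 0.11 and 0.16 in the 51 without. These matches are letters in a window and say nothing about binding in these ovaries.

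With age, 5 of the 78 genes rose and none fell. They were Mrpl33, Mrpl30, Mrps7, Mrpl54 and Mrps25, all by 0.19 to 0.28 on the log2 scale (edgeR quasi-likelihood test, Benjamini-Hochberg adjusted p under 0.05). The 5 make up 6.4% of members, while 5.25% of all genes tested were called higher, 6.03% lower and 11.3% in either direction, so the share of members called higher was near that of all genes. At an unadjusted p under 0.05, 11 members were higher (14.1%, against 12.3% of all genes) and none lower (11.7% of all genes), and DESeq2 also called none lower. The median log2 fold change of the members was 0.07, against 0.01 over all genes tested, and 57 of 78 were above 0 against 51.2% of all genes. The size of any change was small: the 95% interval of all 78 fold changes lay within 1.5-fold in either direction.

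Mrpl33, a large-subunit protein with a bacterial counterpart, had 114, 135 and 148 CPM in the lowest, median and highest YC libraries and 149.5, 159.7 and 175 CPM in OC. Every aged control lay above every young control, which was so for Mrpl33 alone among the members (3.21% of all genes), and no member had every aged control below (4.17% of all genes). Its mean rose from 132 ± 11.7 to 160.4 ± 9.98 CPM, a log2 fold change of 0.28 ± 0.06 (SE; edgeR adjusted p = 0.00489). The call held in all 32 alternative settings run. In the GENCODE M21 annotation Mrpl33 overlaps Gm43809 on the same strand, and that gene was also called higher with age (log2 fold change 1.92 ± 0.42, edgeR adjusted p = 0.00335). The expected counts of Mrpl33 were not whole in any of the 18 libraries, as can happen where reads are split between gene models. How many reads were split was not measured, and its value is uncertain for that reason.

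Mrps7, a protein of the head of the small subunit, had 30.3, 34.2 and 37.7 CPM in YC and 35.3, 40.7 and 47.1 CPM in OC, lowest, median and highest. The ranges overlapped. The log2 fold change was 0.28 ± 0.08 (edgeR adjusted p = 0.0329). Mrps7 overlaps Gga3 and Mif4gd on the opposite strand. Mif4gd was also called higher with age (0.36 ± 0.10, adjusted p = 0.0205) while Gga3 was at 0.04 ± 0.09, and whether counting used strand is unknown from the sources used here.

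Mrps25, a mitochondrial protein of the small subunit, had 63.4, 69.5 and 74.8 CPM in YC and 73.8, 79.0 and 84.3 CPM in OC. The groups overlapped only at the top of YC, and the log2 fold change was 0.19 ± 0.06 (edgeR adjusted p = 0.0323). Mrpl54, a mitochondrial protein of the large subunit, had 44.0, 52.4 and 60.6 CPM in YC and 57.4, 60.9 and 65.3 CPM in OC. One YC library, YC 1, reached into the OC range, and the log2 fold change was 0.24 ± 0.07 (adjusted p = 0.0377). Mrpl30, a large-subunit protein with a bacterial counterpart and the NRF1 letters printed above, had 40.3, 45.7 and 54.5 CPM in YC and 47.8, 55.5 and 63.3 CPM in OC. Its ranges overlapped more widely, and the log2 fold change was 0.23 ± 0.07 (adjusted p = 0.0405).

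Apart from Mrpl33, these calls had adjusted p-values near the threshold and were lost in some settings. Both TPM scales, with all 18 libraries kept, left Mrpl33 alone. With 1 library left out, Mrps7 stayed at 0.23 to 0.32 and Mrps25 at 0.17 to 0.21 on the log2 scale. Mrpl54 stayed at 0.19 to 0.29 and Mrpl30 at 0.19 to 0.28. The count of 5 fell to 1 without OC 2 or without YC 4, to 2 without OC 1, OC 4, YC 3 or YC 6, and to 3 without OC 6 or YC 2. Over the 32 alternatives the adjusted p of Mrps7 ran from 0.0137 to 0.114, that of Mrps25 from 0.0114 to 0.0941, that of Mrpl54 from 0.0101 to 0.108 and that of Mrpl30 from 0.0134 to 0.109, with 23, 21, 18 and 15 of them past the threshold. Without YC 3 and OC+SM 6 together, 2 members were called and the median was 0.04.

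**Figure D2:**
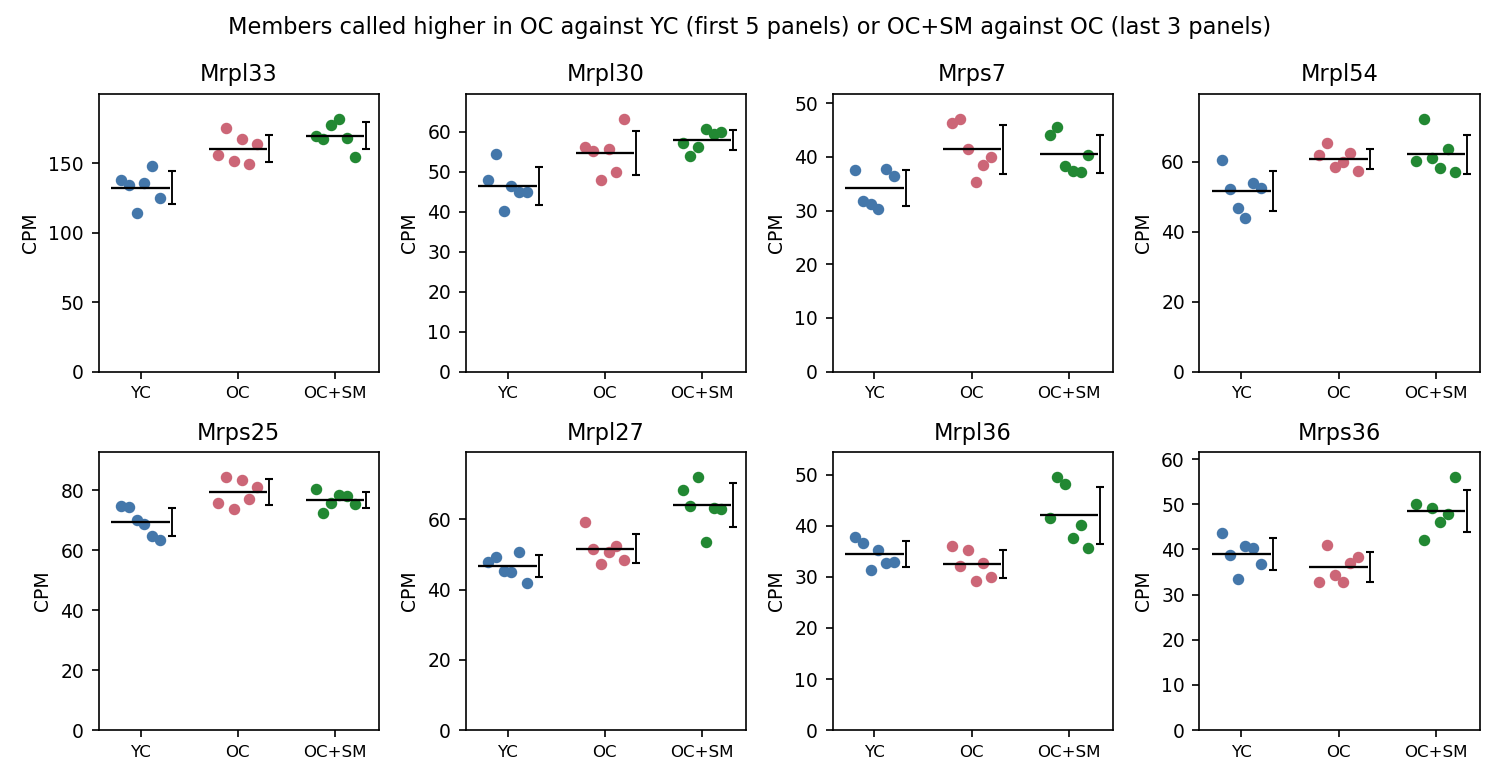
CPM of the 8 genes called in OC against YC (first 5 panels) or in OC+SM against OC (last 3 panels), in every library. Points are libraries, horizontal lines are group means and bars are SD over 6 libraries. Every OC point of Mrpl33 lies above every YC point, and every OC+SM point of Mrps36 lies above every OC point.

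By role, the calls with age were 2 of 30 large-subunit genes with a bacterial counterpart, 1 of 21 mitochondrial large-subunit genes, 1 of 16 small-subunit genes with a bacterial counterpart and 1 of 10 mitochondrial small-subunit genes. Their medians were 0.05, 0.09, 0.07 and 0.07 on the log2 scale, so no role stood out in size. The lowest value belonged to Mrps2, a small-subunit protein with a bacterial counterpart, at -0.20 (edgeR adjusted p = 0.216).

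With Samul-tang, 3 of the 78 genes rose in OC+SM against OC and none fell: Mrps36, Mrpl36 and Mrpl27, by 0.31 to 0.43 on the log2 scale. They make up 3.8% of members, where 0.548% of all genes tested were called higher, 0.489% lower and 1.04% in either direction. Mrps36, among the 3, is no longer counted as a ribosomal protein. Without it, 2 of the 77 remaining members were called higher, 17 were higher at an unadjusted p under 0.05 and the median was 0.11. At an unadjusted p under 0.05, 18 members were higher (23.1%, against 8.61% of all genes) and none lower (8.26% of all genes), and DESeq2 called 5 higher and none lower. The median log2 fold change was 0.11 against 0.01 over all genes, and 66 of 78 were above 0 against 51.4% of all genes. None of the 26 small-subunit genes passed edgeR's threshold, with 6 higher at an unadjusted p under 0.05 and 1 called by DESeq2. The interval lay within 1.5-fold for 76 genes, the others being Mrps36 and Mrpl23.

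Mrps36 had 32.7, 35.7 and 41.0 CPM in the lowest, median and highest OC libraries and 42.0, 48.6 and 56.0 CPM in OC+SM. The groups did not overlap. Its mean rose from 36.1 ± 3.31 to 48.6 ± 4.65 CPM, a log2 fold change of 0.43 ± 0.08 (SE; edgeR adjusted p = 0.014). In YC it had 33.5, 39.6 and 43.5 CPM, and against those the OC+SM change was 0.32 ± 0.08 (adjusted p = 0.00546) while that of OC was -0.11 ± 0.08 (adjusted p = 0.418). Mrps36 was the steadiest call of the 3: it passed in 30 of 32 alternatives. The exceptions were the fit with the share of the most abundant gene as a covariate, where the log2 fold change was 0.41 with an adjusted p of 0.363, and the fit without OC+SM 2, 3 and 6, with 0.42 and 0.093.

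Mrpl36, one of the smallest proteins of the large subunit, had 29.2, 32.4 and 36.1 CPM in OC and 35.6, 40.8 and 49.5 CPM in OC+SM. Only OC 1 reached into the OC+SM range, and the log2 fold change was 0.37 ± 0.08 (edgeR adjusted p = 0.0305). It overlaps Ndufs6, a complex I subunit gene, on the opposite strand, and Ndufs6 was at 0.06 ± 0.07 in this comparison. In OC+SM against YC, where Mrpl36 was called as well, Ndufs6 was called higher too, by 0.23 ± 0.07 (adjusted p = 0.0143). Mrpl27, the counterpart of a bacterial protein near the peptidyl transferase centre, had 47.3, 51.1 and 59.2 CPM in OC and 53.4, 63.4 and 71.9 CPM in OC+SM. OC 1 and OC+SM 4 made the ranges overlap, and the log2 fold change was 0.31 ± 0.07 (adjusted p = 0.0348). In 2 further genes every OC+SM library lay above every OC library without a call, Mrpl14 and Mrps16, so that 3 members did not overlap (3.8%, against 0.849% of all genes) and none had all treated libraries below (0.678%). Mrps16 had 37.0, 41.1 and 44.4 CPM in OC and 44.9, 47.6 and 52.5 CPM in OC+SM. Mrpl14 had 66.1, 70.2 and 72.9 CPM in OC and 74.1, 75.02 and 83.5 CPM in OC+SM.

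The call of Mrpl36 was past the threshold in 21 of the 32 alternatives and that of Mrpl27 in 17, and the cause was not tested. Over the 32 alternatives the adjusted p of Mrpl36 ran from 0.00571 to 0.751 and that of Mrpl27 from 0.00704 to 0.742. The count of 3 fell to 1 without OC 4, OC 6, OC+SM 1, OC+SM 2 or OC+SM 3. It was 0 without OC+SM 2, 3 and 6 together, where 2 genes of all were called and the members' median was 0.05, and 0 with the share of the most abundant gene as a covariate, where no gene of all was called, the members' median was 0.05, Mrpl27 was at 0.12 and Mrpl36 at 0.13.

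Mrpl39 and Mrps14 were not called in this comparison but were among the 6 members with the smallest p-values. Mrpl39, a mitochondrial protein of the large subunit, was at 0.27 ± 0.08 (edgeR adjusted p = 0.0722) and Mrps14, a small-subunit protein with a bacterial counterpart, at 0.24 ± 0.07 (adjusted p = 0.0741). The lowest value was that of Mrpl16 at -0.18 (adjusted p = 0.518).

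Genes with a known role in the ovary or at the ribosome's working sites gave mostly small values. Mrps22, linked to ovarian insufficiency in people, had 21.8, 27.5 and 30.6 CPM in OC and 29.2, 32.8 and 34.8 CPM in OC+SM, so the ranges overlapped at OC 6. Its log2 fold change was 0.27 ± 0.09 (edgeR adjusted p = 0.121) with Samul-tang and -0.04 ± 0.10 (adjusted p = 0.857) with age. Mrpl50, linked to the same condition, was at 0.04 ± 0.07 with age and -0.04 ± 0.07 with Samul-tang, with 95% intervals of -0.12 to 0.19 and -0.19 to 0.12. Mrps7, the third such gene, rose with age as given above and was at -0.03 ± 0.08 with Samul-tang.

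Mrpl12, whose protein forms the stalk that recruits translation factors, was at 0.03 ± 0.08 with age and 0.01 ± 0.08 with Samul-tang. Mrps12, part of the decoding centre, was at 0.06 ± 0.09 with age and -0.00 ± 0.09 with Samul-tang. Mrpl44, an RNase III-like protein, was at 0.08 ± 0.12 and -0.04 ± 0.12. Mrpl58, a peptidyl-tRNA hydrolase built into the large subunit, was at 0.16 ± 0.07 and 0.17 ± 0.07, and Mrps30 was at -0.10 ± 0.07 and 0.13 ± 0.07. None of these passed the threshold in either comparison.

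The 3 genes named for bacterial S18 have come to lie at different places, Mrps18c in the bacterial position, Mrps18b elsewhere in the small subunit and Mrps18a in the large one. Mrps18c was at 0.11 ± 0.09 with age and 0.19 ± 0.09 with Samul-tang, Mrps18b at 0.08 ± 0.12 and 0.16 ± 0.12, and Mrps18a at 0.05 ± 0.08 and -0.12 ± 0.08. Of the 3, only Mrps18c was called anywhere, in OC+SM against YC.

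In treated aged ovaries against young ones, 27 of the 78 genes rose and none fell. They make up 34.6% of members, where 11.5% of all genes tested were called higher, 10.9% lower and 22.4% in either direction. At an unadjusted p under 0.05, 41 members were higher (52.6%, against 17.5% of all genes) and none lower (16.4% of all genes), and DESeq2 called 27 higher and none lower. The median log2 fold change was 0.16 against 0.00 over all genes, and 69 of 78 were above 0 against 50.3% of all genes. In 13 members (16.7%) every OC+SM library lay above every YC library, against 4.85% of all genes, and in none the reverse (4.65%). This comparison shares its libraries with the other 2, and its fold change for each gene is close to the sum of theirs: 4 of the 5 genes called with age and all 3 called with Samul-tang are among the 27.

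By role, 11 of 30 large-subunit genes with a bacterial counterpart rose, 8 of 21 mitochondrial large-subunit genes, 7 of 16 small-subunit genes with a bacterial counterpart and 0 of 10 mitochondrial small-subunit genes, as well as Mrps36. Among the last 10, 4 were higher at an unadjusted p under 0.05, all 10 fold changes were above 0 and their median was 0.17, against 0.16, 0.16 and 0.17 in the other 3 roles. The median SE of that role was 0.09, the largest of the 4, and a difference between roles was not tested.

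The largest change was that of Mrps28, a small-subunit protein, with 16.9, 21.9 and 26.2 CPM in YC and 27.0, 31.5 and 32.9 CPM in OC+SM. The groups did not overlap, and the log2 fold change was 0.51 ± 0.10 (edgeR adjusted p = 0.00111). Mrpl27 had the smallest p, with 41.9, 46.6 and 50.7 CPM in YC against 53.4, 63.4 and 71.9 CPM in OC+SM, and a log2 fold change of 0.45 ± 0.07 (adjusted p = 0.000114). Mrpl20, needed for early assembly of the large subunit in bacteria, had 39.0, 50.6 and 57.2 CPM in YC and 59.7, 67.9 and 76.2 CPM in OC+SM, again without overlap, and rose by 0.44 ± 0.08 (adjusted p = 0.00038).

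Mrps14 had 44.3, 47.4 and 52.9 CPM in YC and 59.5, 61.5 and 65.4 CPM in OC+SM, and rose by 0.36 ± 0.07 (edgeR adjusted p = 0.000459). Mrpl33 rose by 0.36 ± 0.06, from the YC values above to 154, 169 and 182 CPM. Mrpl58 had 28.7, 33.2 and 36.1 CPM in YC and 35.4, 41.3 and 45.1 CPM in OC+SM, overlapping at YC 1, and rose by 0.33 ± 0.07 (adjusted p = 0.00202). Mrpl28 and Mrpl30 rose by 0.30 ± 0.08 and 0.31 ± 0.07. These 8 genes, from Mrps28 to Mrpl30, were past the threshold in all 32 alternatives.

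The other 19 called genes rose by 0.23 to 0.47. The highest of them, Mrpl23, had only 11.4 to 16.7 CPM in YC and 16.0 to 24.3 CPM in OC+SM, with overlap, and a log2 fold change of 0.47 ± 0.13 (edgeR adjusted p = 0.0106). Mrps11, Mrps24, Mrps36, Mrpl41 and Mrps16 followed with 0.34, 0.33, 0.32, 0.31 and 0.30. Mrpl36 rose by 0.29 and Mrps18c by 0.29, Mrpl53 by 0.27, Mrpl54 by 0.27, Mrpl52 and Mrpl14 by 0.25, Mrps7, Mrpl11, Mrpl47, Mrpl39 and Mrpl24 by 0.24, and Mrpl42 and Mrpl57 by 0.23. The lowest value was that of Mrpl1 at -0.12 (adjusted p = 0.376). Mrps25, called with age, was at 0.14 here (adjusted p = 0.0755). The interval lay within 1.5-fold for 74 genes, all but Mrpl20, Mrpl23, Mrpl27 and Mrps28.

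The count of 27 was 17 after removal of each library's trend with gene length, 11 with the share of the most abundant gene as a covariate, 12 without OC+SM 2, 3 and 6 together and 19 without YC 3 and OC+SM 6 together. All of the genes called under those settings were among the 27. The medians there were 0.11, 0.13, 0.13 and 0.11.

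**Figure D3:**
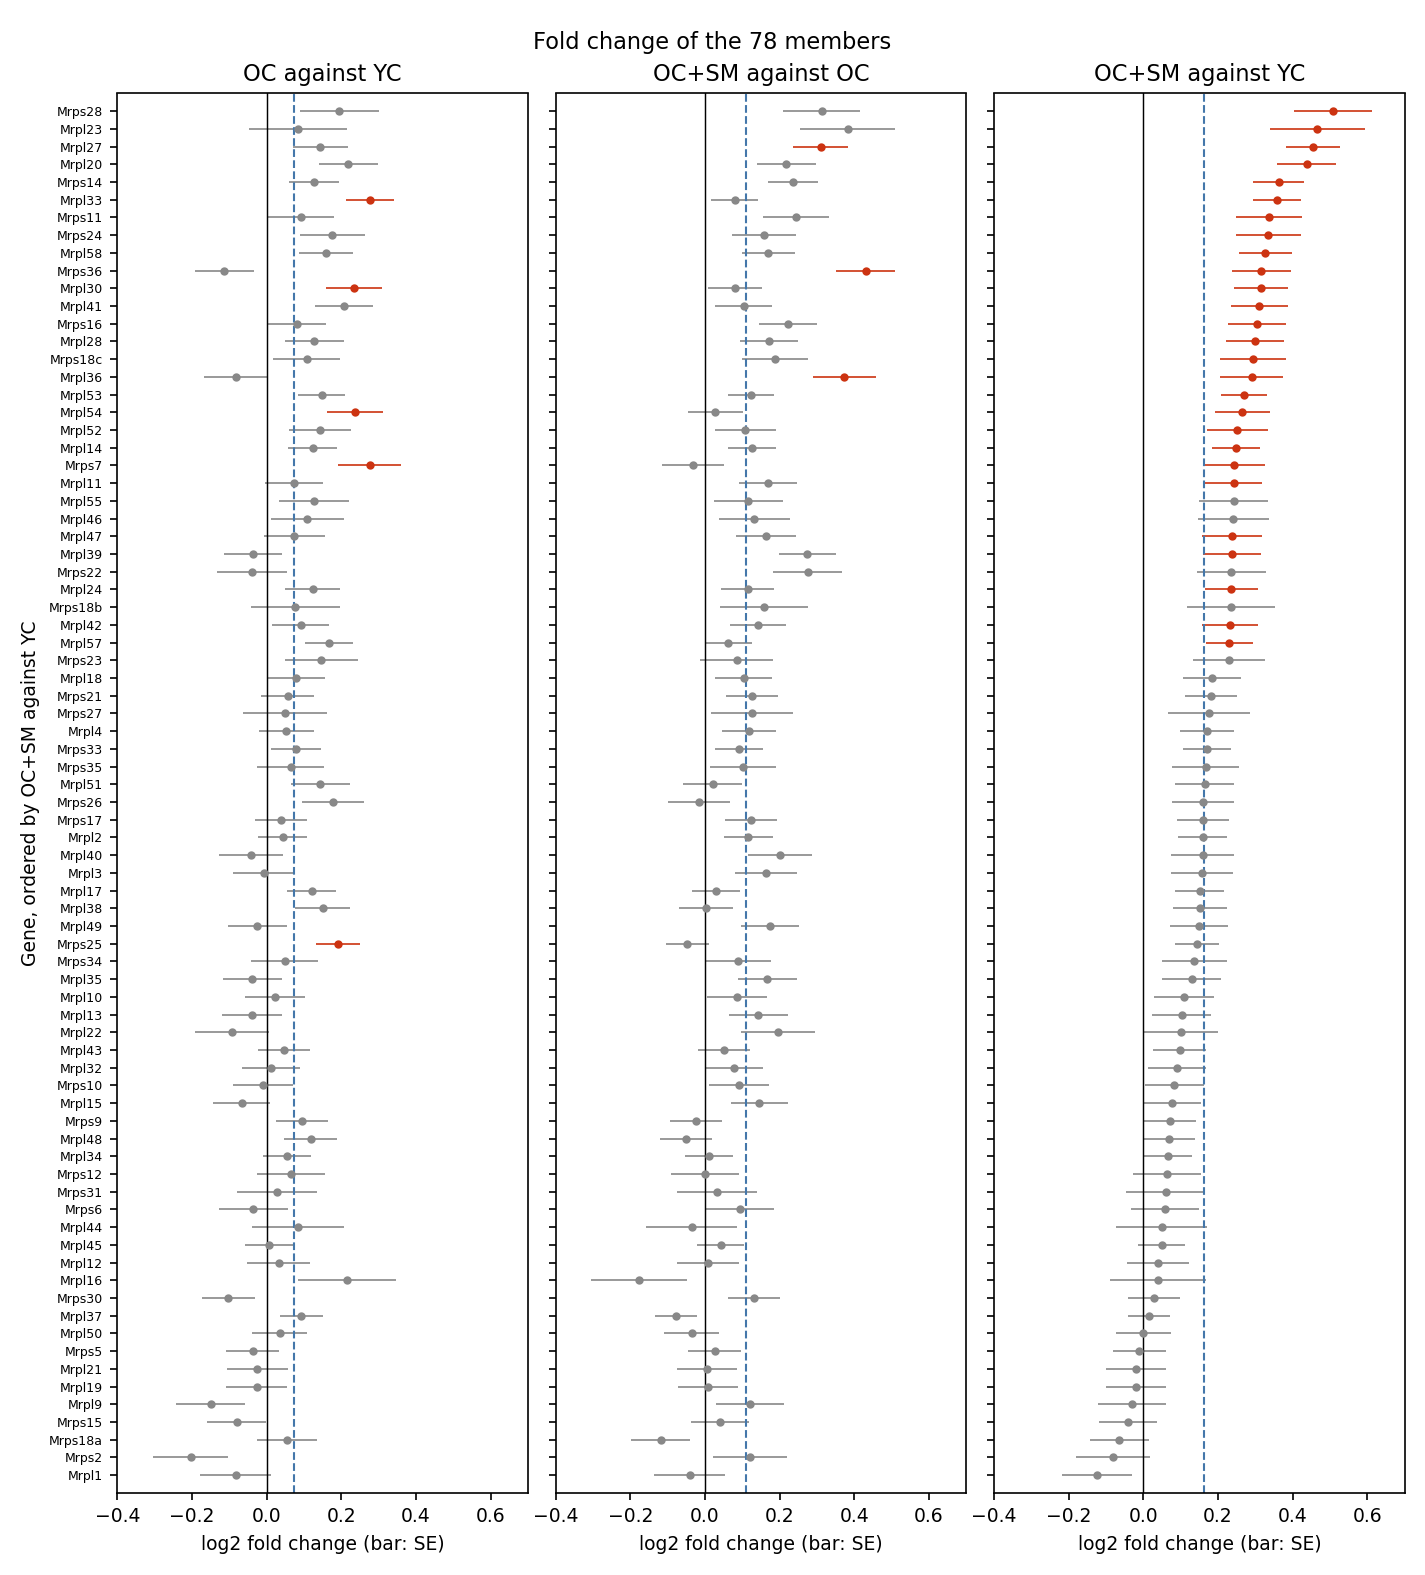
Log2 fold change of each of the 78 genes in the 3 comparisons, with genes in the order of OC+SM against YC. Points are fold changes, bars are SE from edgeR, red marks genes called higher, the solid line is 0 and the dashed line is the members' median (0.07, 0.11 and 0.16). No red point lies left of 0 in any panel, and 5, 3 and 27 points are red.

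The members are short genes. Their median length was 996 bases (349 to 4995) against 2207 bases over all genes tested, and short genes as a whole had higher fold changes in all 3 comparisons. Among other genes longer than 500 and up to 800 bases the medians were 0.06, 0.05 and 0.10 (OC against YC, OC+SM against OC, OC+SM against YC), while the 19 members of that length had 0.12, 0.12 and 0.27. Of those other genes 7.59%, 0.818% and 20.2% were called higher, and of the 19 members 2, 2 and 13 genes were. Between 800 and 1200 bases the medians were 0.02, 0.04 and 0.07 for other genes and 0.08, 0.12 and 0.16 for 27 members, with 6.41%, 1.12% and 16.4% of other genes and 0, 1 and 8 members called higher. In both of these bins, which hold the most members, the members' median lay above that of other genes of like length, and the difference was not tested. After removal of each library's length trend 3, 1 and 17 members were called, with medians of 0.05, 0.07 and 0.11.

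**Figure D4:**
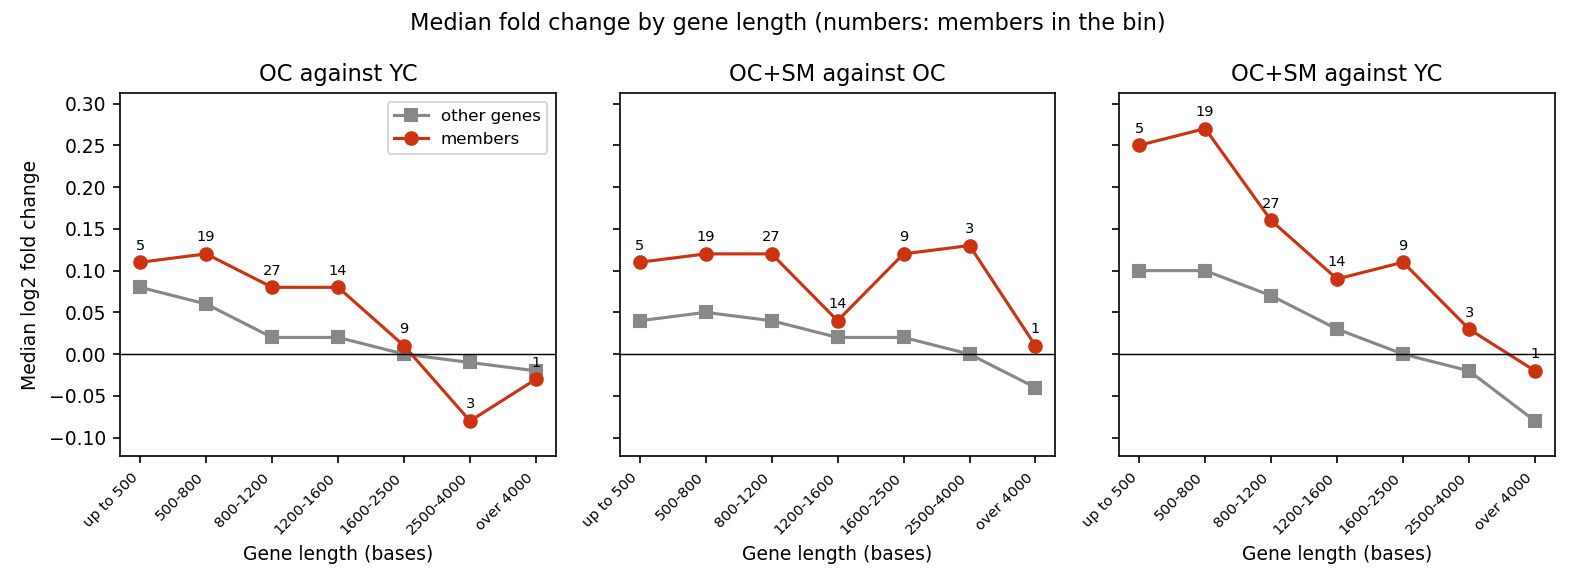
Median log2 fold change by gene length for the members (circles, with the number of members in each bin) and for all other genes tested (squares), in the 3 comparisons. The squares are lowest in the longest bin of every panel. The shortest bin holds 5 members and the last 4 bins hold 14, 9, 3 and 1, so these circles rest on few genes.

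The members varied between mice about as much as other genes of like level. Their median coefficient of variation was 9.39% in YC, 8.11% in OC and 8.93% in OC+SM, against 9.20%, 9.12% and 11.0% in 5189 other genes. Mrps33 in OC+SM was steadiest at 2.33% and Mrps18b in the same group most variable at 20.5%.

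They are spread over 17 chromosomes in the GENCODE M21 annotation, with 11 on chromosome 11, and 33 of them overlap an exon of another gene, 28 on the opposite strand and 8 on the same. For 23 a protein-coding gene on the opposite strand starts within 1000 bases and head to head, so that the genes run away from each other. Expected counts were whole, within 0.005, in all 18 libraries for 10 members and in none for 16. Counts that are not whole can come from reads split between gene models, but the amount of splitting was not measured. Of the 8 genes called with age or with Samul-tang, Mrps36, Mrpl30 and Mrpl54 overlap no other gene there. Their expected counts were still not whole in 14, 3 and 9 libraries. Among the other called genes, counts were not whole in 18 libraries for Mrpl33 and Mrps7, 17 for Mrps25, 9 for Mrpl27 and 1 for Mrpl36. Eme1, which overlaps Mrpl27, and Nr2c2, which overlaps Mrps25, were not called in any comparison.

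The rest of the mitochondrial translation system was read from gene lists. The 5 mitochondrial ribosomal proteins with other symbols are Dap3, Ptcd3, Aurkaip1, Chchd1 and Gadd45gip1. With age 1 of them rose, Aurkaip1 by 0.26 ± 0.07 (edgeR adjusted p = 0.021). With Samul-tang none passed, with 2 higher at an unadjusted p under 0.05 and 1 called by DESeq2. Against YC, OC+SM was higher in 3: Dap3 by 0.28, Aurkaip1 by 0.28 and Chchd1 by 0.26.

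Of 29 genes for assembly of the mitochondrial ribosome and modification of its RNA, 1 rose with age, Mrm1, a methyltransferase of the large ribosomal RNA, by 0.41 ± 0.12 (edgeR adjusted p = 0.0278). With Samul-tang edgeR called none, with 2 higher and 1 lower at an unadjusted p under 0.05 and 1 called by DESeq2. In OC+SM against YC 5 rose: Ndufab1 by 0.25, Nsun4 by 0.24, Ngrn by 0.24, C1qbp by 0.23 and Rbfa by 0.21, and 4 by DESeq2. Of all genes tested, 11.5% were called higher there. Ndufab1 was past the threshold in 29 of 32 alternatives, Ngrn in 27, C1qbp in 20, Nsun4 in 18 and Rbfa in only 5. Without OC+SM 2, 3 and 6 none of the 5 calls was left.

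Of 16 tested translation factors and messenger RNA partners, edgeR and DESeq2 called none in the first 2 comparisons, with 0 at an unadjusted p under 0.05 with age and 1 higher and 1 lower with Samul-tang. Slirp, which stabilises mitochondrial messenger RNA, rose by 0.38 ± 0.09 in OC+SM against YC (edgeR adjusted p = 0.00325). Of 20 mitochondrial aminoacyl-tRNA synthetase genes and partners edgeR called 1, Fars2, the phenylalanine enzyme. It rose with age by 0.27 ± 0.08 (adjusted p = 0.0237) and fell by 0.45 ± 0.08 on the log2 scale with Samul-tang (adjusted p = 0.0105), past the threshold in 25 and 30 of 32 alternatives. In OC+SM against YC it was at -0.18 ± 0.08 (adjusted p = 0.0936). The changes with age and with Samul-tang share the OC libraries. At an unadjusted p under 0.05, 2 genes of this list were higher and 0 lower with age. With Samul-tang 0 were higher and 2 lower, and in OC+SM against YC 1 was higher and 1 lower.

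Of 13 genes for transcription of the mitochondrial genome and its nuclear regulators edgeR called none in any comparison. At an unadjusted p under 0.05, 1 was higher and 1 lower in each of the first 2 comparisons, and 1 was higher and 2 lower in the third, while DESeq2 called 1 lower with Samul-tang. Nrf1, the factor behind the NRF1 letters above, was at -0.14 ± 0.09 with age (adjusted p = 0.361) and -0.20 ± 0.09 in OC+SM against YC (adjusted p = 0.0898). Yy1 was at -0.18 ± 0.06 with Samul-tang (adjusted p = 0.0977).

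The messenger genes of the mitochondrial genome, which these ribosomes translate, moved in both directions. With age 1 of 13 rose, mt-Cytb by 0.21 ± 0.07 (edgeR adjusted p = 0.0481), past the threshold in 17 of 32 alternatives. With Samul-tang mt-Nd5 fell by 0.25 ± 0.06 on the log2 scale (adjusted p = 0.0335), past the threshold in 23 of 32 alternatives. At an unadjusted p under 0.05, 6 were higher and 3 lower with Samul-tang, DESeq2 called 1 higher and 2 lower, and the median was 0.13. In OC+SM against YC 7 rose, among them mt-Nd3 by 0.39, mt-Cytb by 0.35 and mt-Atp6 by 0.34, and 3 fell, mt-Nd2 by 0.37, mt-Nd5 by 0.22 and mt-Atp8 by 0.20. With the share of the most abundant gene as a covariate 1 of the 7 and 1 of the 3 were called.

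Nuclear respiratory chain genes and cytosolic ribosomal protein genes serve as a scale. Of 81 respiratory chain genes 29 were higher with age, with a median of 0.17. With Samul-tang 1 was higher with a median of 0.09, and in OC+SM against YC 63 were higher with a median of 0.26. Of 80 cytosolic ribosomal protein genes 4, 3 and 58 were higher, with medians of 0.09, 0.12 and 0.21. Higher at an unadjusted p under 0.05 were 25, 40 and 66 cytosolic genes and 60, 22 and 67 respiratory chain genes. Among the 78 members 11, 18 and 41 were. Lower at that cut were 1, 1 and 0 cytosolic genes, and 0 respiratory chain genes and members in each comparison. The mitochondrial ribosomal protein genes, with medians of 0.07, 0.11 and 0.16, lay closer to the cytosolic ribosomal protein genes than to the respiratory chain genes with age. In OC+SM against YC their median was below both, but with the length trend removed it was 0.11, as was that of the cytosolic genes, against 0.15 for the respiratory chain. Differences between these lists were not tested. With age, the 4 cytosolic genes became 10 with DESeq2 (and 1 lower), 11 with the share of the most abundant gene as a covariate, 8 without OC+SM 2, 3 and 6 (and 2 lower) and 1 with the length trend removed. With Samul-tang, DESeq2 called 15 cytosolic and 6 respiratory chain genes higher, the fit without YC 3 and OC+SM 6 called 8 and 5 (and 1 cytosolic gene lower), both the covariate and the fit without OC+SM 2, 3 and 6 called 0 and 0, and removal of the length trend gave 0 and 1. The counts of 58 and 63 in OC+SM against YC became 24 and 35 with the length trend removed and 31 and 32 with the covariate.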

How the data were processed

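Per the labels' protocols, RNA of 1 ovary per mouse was made into libraries with the QuantSeq 3' kit, so that each of 18 libraries is a separate mouse. The p-values weigh a difference between groups against the spread between mice within groups, estimated over all 18 libraries together. Per the submitters' processing notes, the build was GRCm39 and the tools were RSEM 1.3.3, STAR 2.7.9a and FastQC 1.9. The authors deposited expected counts and TPM from RSEM for every gene, in 1 file per library, as the file headers show. RSEM splits reads that match several genes, so expected counts need not be whole. The authors divided TPM by gene length, a step made for reads from whole transcripts, and TPM served here only as an alternative and for levels across genes. Which annotation was used, and whether counting used strand, is not stated in them.

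Symbols came from a mouse annotation matched by Ensembl identifier (52083 of 55416 matched). GENCODE M21 gave names of overlapping and neighbouring genes, and RefSeq (GRCm38.p6) gave promoters. Both are of another build than the files, so no position was carried over. Expected counts were rounded, filtered with edgeR's filterByExpr (16959 genes kept), scaled by TMM and compared by the quasi-likelihood test of edgeR 4.0.16 (R 4.3.3), in 1 fit over all 18 libraries. P-values were adjusted by Benjamini-Hochberg over all genes tested, and a gene was called under 0.05. The procedure was run on simulated counts with known changes and the same spread for every gene. A high share of recovered calls was required there only for changes larger than those of the members. CPM are TMM-scaled. Library depth was 9049175 to 20354213 expected counts, which gave members a median SE of 0.08 on the log2 scale.

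The 32 alternatives changed the scaling, the filter, the test (DESeq2 1.42.0; limma 3.58.1 on log2(TPM + 1) and log2(TPM + 0.1)), the libraries in the fit, a length trend, the share of the most abundant gene as a covariate, the depth, a replicate block, and left out each library in turn. The 2 that left out several libraries were chosen after seeing the data. Members, lists and tests were chosen with earlier results of these data known. Named members were those called in any comparison, the 6 with the smallest p and the 2 with the most extreme fold change in each comparison, and a panel of 11 (Mrpl12, Mrpl44, Mrpl50, Mrpl58, Mrps7, Mrps12, Mrps22, Mrps30, Mrps18a, Mrps18b and Mrps18c). From lists, called genes and up to 3 with the smallest p were named. One translation factor, Mtrfr, had no matching identifier and was not used here.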

Additional observations from a re-analysis of the deposited data

Results flagged for a closer look

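In each group of 6 libraries, 1 library stood apart from the other 5 by a gap past Dixon's 95% critical value in 17 of 129 checks (39 named members, 3 sums and the subunit ratio, in 3 groups). Chance marks about 1 in 20 such groups, and checks that share a library are not independent.

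YC 3 was low in the sum over all members (3058 CPM, the other 5 libraries 3518 to 3687), over the large subunit (1978 CPM, others 2229 to 2362) and over the small subunit (1047 CPM, others 1240.0 to 1285). It was also low in Mrpl14 (51.2 CPM, others 64.8 to 68.6), Mrpl52 (63.4 CPM, others 76.6 to 80.5) and Mrps16 (29.5 CPM, others 38.2 to 42.7). OC 2 was high in the sum over all members (3945 CPM, others 3626 to 3735), in the small subunit (1386 CPM, others 1250.0 to 1279) and in Mrpl1 (22.6 CPM, others 15.8 to 18.1). OC+SM 6 was high in Mrpl12 (65.3 CPM, others 47.6 to 53.7), Mrpl52 (115.8 CPM, others 77.2 to 88.7) and Mrps11 (48.1 CPM, others 31.3 to 36.1).

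Single genes stood apart in other libraries. These were Mrpl11 in YC 5 (40.9 CPM, others 31.7 to 34.6), Mrpl44 in YC 1 (20.1 CPM, others 14.6 to 16.4), Mrps18a in YC 6 (19.2 CPM, others 22.9 to 24.3), Mrps30 in OC 1 (25.1 CPM, others 30.0 to 32.3) and Mrpl14 in OC+SM 4 (83.5 CPM, others 74.1 to 76.8).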

How the results depend on the processing

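Every call among the members kept its direction in all 32 alternatives, and 0 members were called lower in any of them. The median log2 fold change of the members ran from 0.03 to 0.08 in OC against YC, from 0.05 to 0.13 in OC+SM against OC and from 0.11 to 0.18 in OC+SM against YC. The counts moved more. For OC against YC, 5 members became 2 with upper-quartile factors, 2 without a filter on low counts, 1 on log2(TPM + 1), 1 on log2(TPM + 0.1), 3 with the length trend removed and 2 without YC 3 and OC+SM 6 together, and 1 to 5 with 1 library left out. For OC+SM against OC, 3 members became 5 with DESeq2, 1 in a fit of the 12 libraries compared, 1 with the length trend removed, 0 with the share of the most abundant gene as a covariate and 0 without OC+SM 2, 3 and 6 together, and 1 to 4 with 1 library left out. Over all genes that comparison had 176 calls, against 665 with DESeq2, 45 in the fit of 12 libraries, 0 with the covariate, 2 without OC+SM 2, 3 and 6, and 32 to 593 with 1 library left out. For OC+SM against YC, 27 members became 17 with the length trend removed, 11 with the covariate and 12 without OC+SM 2, 3 and 6 together, and 21 to 29 with 1 library left out; over all genes 3795 calls became 1368 with the covariate and 2029 without those 3 libraries. The cause of these moves was not tested.

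The replicate numbers did not pair the mice: correlations between same-numbered libraries lay between -0.118 and 0.074, and no comparison had every pair above 0.1. With the number as a replicate block, 4, 3 and 26 members were called in the 3 comparisons (Mrps25 and, in OC+SM against YC, Mrpl47 lost their calls), with medians of 0.07, 0.11 and 0.17.

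Signs turned in some settings only for members that were not called in that comparison. With 1 library left out, the log2 fold changes ran in OC against YC from -0.03 to 0.08 for Mrpl12, -0.01 to 0.15 for Mrpl44, -0.01 to 0.09 for Mrpl50, -0.00 to 0.11 for Mrps12 and -0.09 to 0.02 for Mrps22. In OC+SM against OC they ran from -0.06 to 0.04 for Mrpl12, -0.11 to 0.06 for Mrpl44, -0.09 to 0.01 for Mrpl50, -0.02 to 0.05 for Mrpl54, -0.07 to 0.01 for Mrps7 and -0.03 to 0.02 for Mrps12. On both TPM scales the sign turned for Mrpl12 (-0.00) and Mrpl50 (-0.01) in OC against YC and for Mrps12 (0.04) in OC+SM against OC. Thinning turned Mrps22 (0.02) in OC against YC, and Mrps12 (0.04) and Mrps7 (0.00) in OC+SM against OC. The other turns were all in OC+SM against OC except the first: without YC 3 and OC+SM 6, Mrpl12 (-0.02) in OC against YC, then Mrpl12 (-0.06) and Mrpl44 (0.05); without OC+SM 2, 3 and 6, Mrpl12 (-0.10), Mrpl54 (-0.00) and Mrps18b (-0.05); with the length trend removed, Mrpl12 (-0.01) and Mrpl54 (-0.02); with the covariate, Mrpl12 (-0.09), Mrpl54 (-0.11), Mrps18c (-0.00) and Mrps12 (0.01); with no filter, Mrps12 (0.01).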
